A study of Macaca fascicularis with 11 samples.

Results

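The growth factor genes HGF, PGF and FGF17 were followed through cultured cynomolgus macaque embryos, as 3 of the 19367 genes in the deposited matrix. They were chosen by symbol and matched to identifiers through the supplementary tables of the study, HGF to ENSMFAG00000034472, PGF to ENSMFAG00000044494 and FGF17 to ENSMFAG00000032610. The study lists them among its markers of extraembryonic mesenchyme (ExE-Mech), trophoblast and mesoderm, so a lineage in which each stood high was known when they were chosen. Levels by lineage are therefore given as a description, without a test.

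Libraries of single-cell RNA sequencing from 2 genotypes, taken on Day 10, on Day 12 or on Day 14 of development, were compared. The wild type gave 6 libraries of 12 embryos in all, the ISL1 hypomorphic mutant gave 5 of 11, and each library pooled 1 to 3 embryos. All embryos were thawed blastocysts freed of the zona pellucida and grown in media containing oestradiol and progesterone, so implantation took place on plastic and without a uterus. The mutants came from zygotes injected with SpCas9 and 2 guide RNAs against ISL1, are mosaic for several edits, and are represented at Day 10 by 1 library. Replicate numbers are the batch labels B1 and B2. No label says that embryos of different libraries had different parents, so the tests below measure the spread between these libraries.

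HGF is a secreted ligand of the receptor MET, made mostly by mesenchyme and acting on neighbouring epithelium, and it is cleaved to its active form by serine proteases. PGF, placental growth factor, belongs to the VEGF family, binds the receptor FLT1 and is made in quantity by the placenta. FGF17 is a secreted fibroblast growth factor of the FGF8 subfamily, which signals through FGF receptors in the gastrulating embryo.

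The matrix holds 33330 cells. Libraries had between 325 and 9625 cells, between 36654977 and 164808415 unique molecular identifiers (UMIs, 1 for each captured transcript), and a median of 10916 to 142180 UMIs per cell. Cells were clustered by day without HGF, PGF, FGF17 or the listed genes of their pathways with a matched identifier. Pathway genes without one, such as MET and FLT1, could not be taken out. Clusters were named from marker lists and given the ending -like. Trophoblast-like cells numbered 22815, ExE-Mech-like cells 6389, endoderm-like cells 480, and, among cells derived from the epiblast, Epi-like cells 2067, mesoderm-like cells 369 and amnion-like cells 354. Classes were named from these same lists, so the counts that follow do not check them independently. Each marker list was highest in its own class for 10 of 10 trophoblast, 10 of 10 ExE-Mech, 8 of 8 endoderm and 10 of 10 Epi markers. The same held for 9 of 10 amnion markers, all but TFAP2A, which was highest in trophoblast-like cells. It held for only 10 of 16 mesoderm markers, since RSPO3, EOMES and GSC were highest in endoderm-like and CDX4, HOXD9 and SPP1 in amnion-like cells. Clusters with markers of more than 1 class held 33 wild-type and 248 mutant cells, up to 1.73% of a wild-type and 1.31% of a mutant library. Day 10 clusters without a name held 346 wild-type and 3 mutant cells, up to 26.9% of a wild-type and 0.390% of a mutant library, and 226 cells from the epiblast stayed unnamed, 24 of wild-type and 202 of mutant Day 14 replicate 1. Libraries shared few barcodes, 124 in all. ISL1, the targeted gene, stood at 144 to 233 CPM (UMIs of a gene per 1000000 UMIs) in amnion-like cells of 3 wild-type libraries and at 34.7 to 252 in 4 mutant ones, but tags from the 3′ end of a transcript do not check an edit at its start.

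HGF was a gene of the ExE-Mech-like cells in every library that had them. Levels are given as CPM over the summed UMIs of a class in a library, for classes with at least 5 cells. In ExE-Mech-like cells HGF stood at 1339 CPM in wild-type Day 12 replicate 2, and at 651 and 834 in the wild-type Day 14 libraries. It stood at 361 CPM in the mutant Day 10 library, at 566 and 724 in the mutant Day 12 libraries, and at 472 and 508 in the mutant Day 14 libraries. The wild-type Day 12 library was thus the highest and the mutant Day 10 library, with 58 cells, the lowest. No wild-type Day 10 library held ExE-Mech-like cells, and neither did wild-type Day 12 replicate 1.

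The median of these 8 libraries was 609 CPM, and the next class, mesoderm-like cells, had a median of 18.5 CPM (0 to 92.1). The 2 ranges did not overlap, and the ratio of the medians was 32.9. Below them, amnion-like cells (median 9.18 CPM), endoderm-like cells (2.47), trophoblast-like cells (1.62) and Epi-like cells (0.655) followed, and the ranges of neighbours in this order overlapped. ExE-Mech-like cells were 4.94% to 27.3% of the cells of these libraries and held 92.1% to 97.3% of their HGF UMIs.

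HGF was found in most single cells of this class. Since depth differed, each cell was thinned to 10000 UMIs, which 5021 of the 6389 ExE-Mech-like and 18726 of the 22815 trophoblast-like cells allowed. After thinning, 79.8% to 99.2% of ExE-Mech-like cells of a library had an HGF UMI, against 0% to 4.38% of trophoblast-like cells, which served as the background. Before thinning the shares were 91.3% to 99.7% and 0% to 7.44%, at median depths per library of 10026 to 90223 and 11406 to 143737 UMIs.

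Outside ExE-Mech-like cells, HGF was found almost only in libraries that held that class. Wild-type Day 10 replicate 2 and wild-type Day 12 replicate 1, which lacked it, had no HGF UMI in any cell. For their trophoblast-like cells this allows levels of up to 0.111 and 0.0708 CPM (3 counts of the total), and such limits and all count intervals here cover counting error only. In wild-type Day 10 replicate 1, 14 of the 15 HGF UMIs lay in the 26 mesoderm-like cells, at 7.43 CPM. Trophoblast-like cells of the mutant libraries at Day 12 and Day 14 held 2.19 to 5.93 CPM, against 0.839 to 2.15 in the wild-type libraries that had ExE-Mech-like cells. The part of free RNA in these low levels was not tested.

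**Figure D1:**
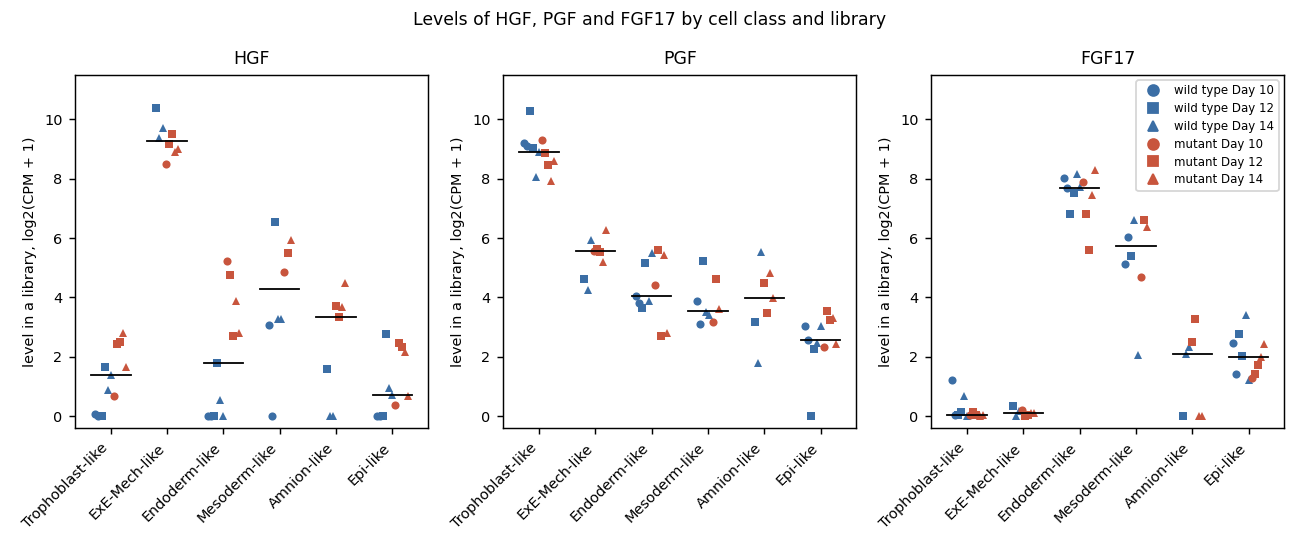
Level of HGF, PGF and FGF17 in each of 6 cell classes, as log2(CPM + 1), with 1 point per library (colour for genotype, shape for day) and a line at the median over libraries. HGF stands apart in ExE-Mech-like cells (median 609 CPM) and PGF in trophoblast-like cells (median 477 CPM), while FGF17 is high in endoderm-like (median 203 CPM) and mesoderm-like cells (median 52.7 CPM), whose ranges overlap.

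Within the class, HGF was high in the larger clusters of Day 12 and Day 14 rather than in 1 of them. The 3 Day 12 clusters stood at 693, 699 and 859 CPM, and the 3 larger Day 14 clusters at 539.6, 573.0 and 573.6 CPM. The lowest was a Day 14 cluster of 78 cells at 215 CPM, in which mutant Day 14 replicate 1 stood at 47.2 CPM, on 18 UMIs of 54 cells, and mutant Day 14 replicate 2 at 277 CPM, on 131 UMIs of 22 cells. In each of the 3 Day 12 clusters the wild-type library was above both mutant libraries, at 1127 to 1460 CPM against 539 to 902. At Day 14 the libraries were spread unevenly over the clusters. The largest held 135 of 157 and 242 of 337 cells of the wild-type libraries. It also held 1311 of 2404 cells of mutant replicate 1 and 259 of 1059 of mutant replicate 2. Another held 778 cells of mutant replicate 2, and a further cluster was nearly all from mutant replicate 1 (737 of 739 cells). HGF stood at 649 and 883 CPM in the wild type against 431 and 443.5 in the mutant in the first of these, and at 677 and 678 against 601 and 546 in the next, where the gap was smaller and 20 and 93 cells were wild-type. The part of the clusters' shares in the genotype difference was not tested.

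The mutant was compared with the wild type after day was allowed for, by edgeR's quasi-likelihood test on sums per library, at a false discovery rate of 1% (Benjamini-Hochberg, two-sided). HGF was lower in mutant ExE-Mech-like cells by a log2 change of -0.71 (SE 0.21, 95% interval -1.19 to -0.22, 8 libraries), a fold of 0.612. The mutant Day 10 library had no wild-type library of its day beside it, so it adds nothing to this change. At Day 12 the wild type was 1 library. The unadjusted p was 0.00988 and edgeR's adjusted p was 0.174, so the difference did not pass over the 12706 genes tested, of which 2 passed (0.0157%), both higher in the mutant. DESeq2 gave an adjusted p of 0.0325, which did not pass either, and called 273 genes.

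HGF was lower in every mutant library than in every wild-type library of the same day, at Day 12 and at Day 14. The same order was found for 1440 of the 12706 genes (11.3%), and the opposite order for 1514 (11.9%). Within batch B1 the pair available was 651 and 472 CPM at Day 14, and within B2 the pairs were 1339 and 724 at Day 12 and 834 and 508 at Day 14. Trophoblast markers summed to 129, 394 and 157 CPM in the wild-type ExE-Mech-like cells of Day 12 and Day 14, and to 493, 310.5, 679 and 388 in the mutant ones, with 10 of 10 markers detected in each library. In trophoblast-like cells the same list summed to 5248 to 21749 CPM. The ExE-Mech list itself was higher in the mutant at Day 14, opposite to HGF, at 8691 and 12515 CPM against 3875 and 7152, while at Day 12 it stood at 4299 and 5952 CPM in the mutant and 5182 in the wild type. Amnion markers, 6 to 10 of 10 detected, summed at Day 14 to 96.6 and 60.5 CPM in the mutant against 37.8 and 20.5, and at Day 12 to 46.6 and 28.0 against 42.8. GABRP and LYPD1 were at 0 in both wild-type libraries of Day 14. The part of these differences in the lower HGF level was not tested.

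From Day 12 to Day 14, HGF in ExE-Mech-like cells had a log2 change of -0.47 (SE 0.21, 95% interval -0.96 to 0.02), with an adjusted p of 0.356 by edgeR. No gene of 12706 passed in that comparison (0%) by edgeR, 1845 had an unadjusted p under 0.05, and DESeq2 called 189. The Day 10 level, 361 CPM, came from 1 mutant library and was not tested.

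Of 7 genes listed for the HGF pathway, 3 have an identifier in the sources used, and MET, HGFAC, ST14 and SPINT1 were not analysed here. Levels of pathway genes are given over sums with at least 20 cells. SPINT2, an inhibitor of the proteases that activate HGF, was lowest in the class that made HGF, with a median of 112 CPM in ExE-Mech-like cells (85.4 to 235), against medians of 405 to 854 in the other 5 classes. PLAU, urokinase, was instead highest in that class, with a median of 269.99 CPM in ExE-Mech-like cells (139.9 to 425) and of 3.98 to 36.05 elsewhere. HPN, hepsin, a protease that can activate HGF, had its highest median in endoderm-like cells, 128 CPM (37.1 to 211), followed by amnion-like cells with 58.3 CPM (26.3 to 88.0), and stood at a median of 1.57 CPM in ExE-Mech-like cells. Each of the 3 genes thus differed between ExE-Mech-like cells and at least 1 other class without overlap of the ranges.

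PGF was a gene of the trophoblast-like cells in all 11 libraries. It stood at 589.9 and 542 CPM in the wild-type Day 10 libraries, at 1243 and 524 at Day 12, and at 267 and 477 at Day 14. In the mutant it stood at 621 CPM at Day 10, at 459 and 354 at Day 12, and at 239.7 and 388 at Day 14. Wild-type Day 12 replicate 1, from 1 embryo, was the highest of the 11. The 4 Day 14 libraries lay below all 3 Day 10 libraries, and how many genes keep this order was not counted. The order was found with the unnamed Day 10 clusters left out. Those held 10.6% and 10.7% of the PGF UMIs of the wild-type Day 10 libraries, at 111.0 and 111.2 CPM. Among them, clusters of 74 and 188 cells were nearest to trophoblast.

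The median over libraries was 477 CPM, and ExE-Mech-like cells came next with a median of 46.0 CPM (17.99 to 76.4), without overlap of the ranges and with a ratio of the medians of 10.4. Endoderm-like (15.7), amnion-like (14.7), mesoderm-like (10.8) and Epi-like cells (4.91) followed, each overlapping its neighbour. Trophoblast-like cells held 88.4% to 99.97% of the PGF UMIs of a library. After thinning to 10000 UMIs, 64.8% to 90.3% of trophoblast-like cells had a PGF UMI, against 0% to 9.59% of Epi-like cells, over 18726 of 22815 and 1856 of 2067 cells. Before thinning, 68.3% to 100% and 0% to 27.7% had one, at median depths of 11406 to 143737 and 8637 to 136240 UMIs.

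Within the trophoblast-like cells PGF was uneven. The 31 clusters of the 3 days ranged from 86.0 to 5919 CPM. The highest was a Day 12 cluster of 154 cells, which was 1.64% of the trophoblast-like cells of that day and held 27.2% of their PGF UMIs. It ranked first in PGF in each of the 4 Day 12 libraries, at 9880 and 2807 CPM in the wild type and 3205 and 4184 in the mutant, the last on 8 cells, so its pooled level leans on wild-type Day 12 replicate 1. The next were Day 10 clusters of 85 and 36 cells at 2323 and 2019 CPM, a Day 12 cluster of 279 cells at 2065 CPM and a Day 14 cluster of 450 cells at 1412 CPM. These were rich in CGA, the common subunit of glycoprotein hormones such as chorionic gonadotropin, at 19131 to 69335 CPM. The clusters highest in CGA, at 173907 CPM on Day 12 and 135315 on Day 14, had PGF at only 933 and 746 CPM.

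Across the 31 clusters, the log2 levels of PGF and CGA had a Pearson r of 0.83 and those of PGF and HSD3B1, an enzyme of progesterone synthesis, an r of 0.80. GCM1, a transcription factor of trophoblast fusion, gave 0.62 and S100P 0.51, while INSL4 gave 0.16 and HSD17B2, the last of the 6 hormone-high genes, -0.11. The marker of invasive trophoblast LAIR2 gave 0.26 and ISM2 -0.36, and the 5 cytotrophoblast genes gave -0.29 (ITGA6) to 0.04 (XAGE3). These correlations describe clusters that share libraries, and carry no test.

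**Figure D2:**
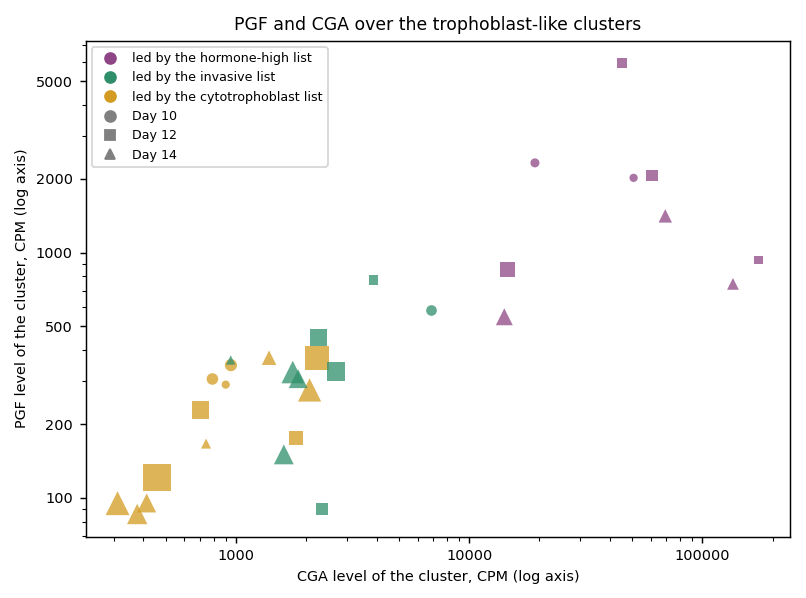
PGF against CGA in the 31 trophoblast-like clusters, both in CPM on log axes, with 1 point per cluster, sized by its number of cells, coloured by the marker list that leads it and shaped by day. The clusters led by the hormone-high list lie to the right and mostly on top, up to 5919 CPM, and PGF and CGA have a Pearson r of 0.83.

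The clusters were grouped by which of 3 marker lists led them. The lists were hormone-high (CGA, INSL4, HSD3B1, HSD17B2, S100P, GCM1), invasive (of which only LAIR2 and ISM2 have identifiers) and cytotrophoblast (PAGE4, XAGE3, VGLL1, PPARG, ITGA6). This grouping was set after cluster values had been seen. A list led where its score, the mean log2 level of its genes less their mean over the clusters, was the highest of the 3. In the Day 10 cluster of 85 cells the hormone-high score led at -0.275, below that mean. Its invasive and cytotrophoblast scores were -3.62 and -0.903. That cluster gave 46 of 49 and 29 of 29 hormone-high cells of the wild-type Day 10 libraries. The hormone-high clusters of Day 14 scored 0.831 to 1.42. Hormone-high clusters held 6.14% to 33.2% of the trophoblast-like cells of a library and 15.1% to 83.9% of their PGF UMIs.

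In the hormone-high clusters PGF stood at 2293 and 2026 CPM in the wild-type and 2267 in the mutant libraries of Day 10. At Day 12 it stood at 3009 and 1598 CPM in the wild type and at 1558 and 1148 in the mutant. At Day 14 it stood at 722 and 977 CPM in the wild type and at 658 and 788 in the mutant. Every Day 14 library was below every Day 12 and Day 10 library, and how many genes of these clusters keep the same order was not counted. In the cytotrophoblast clusters PGF ran from 278 to 350.2 CPM at Day 10 and from 127 to 291 at Day 14, where mutant Day 14 replicate 2 overlapped the Day 10 range. The invasive clusters ran from 473 to 597 CPM at Day 10 and from 239 to 310.3 at Day 14.

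**Figure D3:**
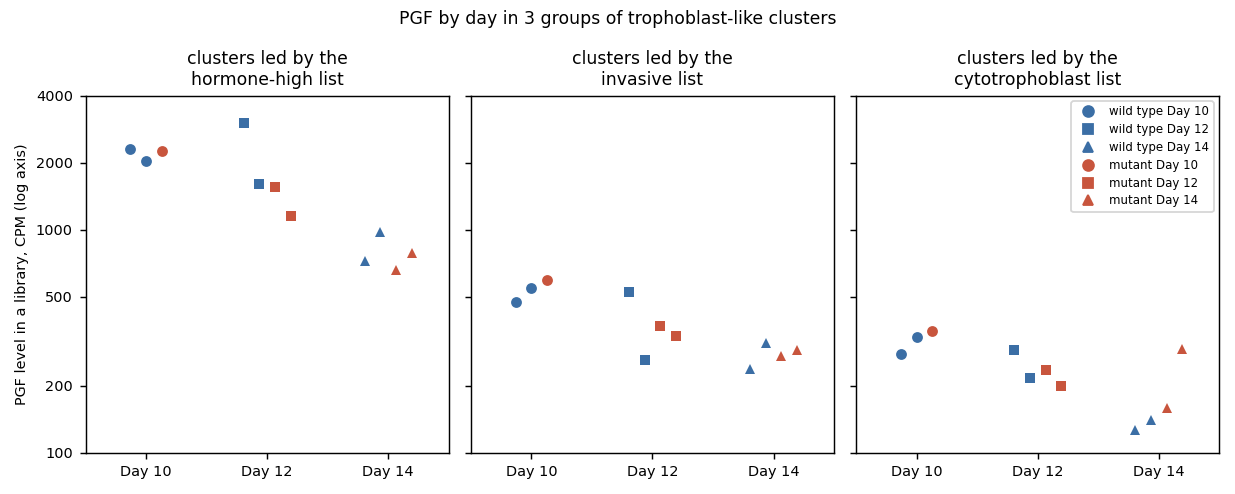
PGF level of each library (CPM, log axis) by day (Day 10, 12 or 14) in trophoblast-like clusters led by the hormone-high, invasive or cytotrophoblast list, with colour for genotype. In the hormone-high clusters the 4 Day 14 libraries lie at 658 to 977 CPM, below all libraries of the earlier days (1148 to 3009 CPM). The grouping was set after values had been seen, and how many genes keep this order was not counted. The cluster highest in PGF, taken alone, overlapped between Day 10 (2026 to 3077 CPM) and Day 14 (863 to 2231 CPM).

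Over all trophoblast-like cells, PGF changed from Day 10 to Day 14 by a log2 change of -0.72 (SE 0.39, 95% interval -1.57 to 0.14, 11 libraries), with an adjusted p of 0.266 by edgeR, which did not pass. With clusters made without integration of the libraries the change was -1.34 (adjusted p = 0.102 by edgeR), which did not pass either. No gene of 14358 passed (0%) by edgeR, 3795 had an unadjusted p under 0.05, and DESeq2 called 1451. In the hormone-high clusters alone, a comparison added after the values were seen, PGF fell by 1.77 on the log2 scale (SE 0.32, 95% interval -2.46 to -1.07), a fold of 0.294, with an adjusted p of 0.00574 by edgeR. The call was lost with the batch number as a block (-1.69, adjusted p = 0.0113) and in the wild type alone (-1.88, adjusted p = 0.0265). There 536 of 11545 genes passed (4.64%), 387 of them lower at Day 14 (3.35%). Over the 11 omissions of 1 library the log2 change ran from -1.91 to -1.62 and edgeR's adjusted p from 0.000861 to 0.0252. It was also lost without wild-type Day 10 replicate 1 (adjusted p = 0.0166) or 2 (0.0128), without wild-type Day 14 replicate 1 (0.0252) or 2 (0.0201), and without replicate 1 of the mutant at Day 10 (0.016), Day 12 (0.0108) or Day 14 (0.0168).

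Clusters were made for each day separately, and whether the hormone-high clusters held the same kind of cell on each day was not tested. Some clusters lay near the cut between lists. A Day 10 cluster of 205 cells (PGF 583 CPM, CGA 6847) scored 0.667 for hormone-high and 0.848 for invasive, and was left out. A Day 14 cluster of 841 cells (PGF 548 CPM, CGA 14136) scored 0.831 and 0.451, and was counted in. The part of this assignment in the fall of PGF was not tested. At Day 10 the cluster of 85 cells had INSL4 at 27.8 CPM and that of 36 cells, 33 of them from the mutant, at 1249.5 CPM, and the hormone-high clusters of Day 14 had it at 958 to 1036 CPM. The cluster highest in PGF stood at 2026 to 3077 CPM in the 3 Day 10 libraries and at 863, 1063, 1764 and 2231 CPM in the 4 Day 14 libraries, so that these ranges overlapped while those of all hormone-high clusters together did not. Endoderm markers in the hormone-high clusters summed to 1199, 179.5 and 7.04 CPM at Day 10 and to 3.32 to 47.1 at Day 14. ExE-Mech markers summed to 19.3 to 72.9 CPM at Day 10, with 4 to 7 of 10 detected, and to 54.7 to 232 at Day 14, with 10 of 10 detected. POSTN, HAND2 and COL6A3 were at 0 in all 3 Day 10 libraries. Amnion markers, 9 or 10 of 10 detected, summed to 1838 to 2196 CPM at Day 10 and to 873 to 1205 at Day 14, lower without overlap as PGF was. This list was not particular to amnion. TFAP2A was highest in trophoblast-like cells, and the study reports HEY1 in part of the trophoblast as well. Trophoblast-like cells as a whole carried the list at 522 to 908 CPM, and the Day 10 libraries held no amnion-like cells. The part of these differences in the fall of PGF was not tested.

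Mutant and wild-type trophoblast-like cells differed in PGF by a log2 change of -0.49 (SE 0.31, 95% interval -1.19 to 0.20, 11 libraries), with an adjusted p of 0.393 by edgeR, which did not pass. Without wild-type Day 12 replicate 1, the library at 1243 CPM, the change was -0.15 (adjusted p = 0.693 by edgeR). Of 14358 genes 1 passed (0.00696%), and DESeq2 called 730. Of the 5 pairs of libraries with the same day and batch, PGF was lower in the mutant in 4, and at Day 10 it was higher, at 621 against 589.9 CPM. Among cytotrophoblast clusters alone the log2 change was 0.21 (adjusted p = 0.677) and among hormone-high clusters -0.41 (adjusted p = 0.439), by the same edgeR test. Cells were shared out differently over the clusters. Invasive clusters held 26.1% to 37.2% of the trophoblast-like cells of a mutant library, against 3.70% to 10.3% in 5 wild-type libraries and 37.4% in wild-type Day 14 replicate 1. Hormone-high clusters, where PGF was highest, held 6.14% to 22.03% in the mutant and 11.9% to 33.2% in the wild type, and these ranges overlapped. The part of these shares in the PGF difference was not tested.

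Of 8 genes listed for the PGF pathway, only NRP2, a co-receptor for VEGF family ligands, has an identifier in the sources used, and FLT1, KDR, NRP1 and the VEGF genes were not analysed here. Its highest median was 252 CPM, in ExE-Mech-like cells (136 to 332), and in trophoblast-like cells it stood at 39.8 CPM (8.12 to 98.5). In the hormone-high clusters NRP2 rose from Day 10 to Day 14 while PGF fell, with a log2 change of 4.51 (SE 0.50) and an adjusted p of 0.000729 by edgeR. It stood at 1.42, 1.56 and 0.391 CPM at Day 10, on 4, 5 and 2 UMIs, the last under the level of 3 counts (0.586 CPM). It stood at 10.5 to 13.7 CPM at Day 12 and at 18.9 to 50.4 CPM at Day 14. The size of the change is uncertain, and the call sets later levels against almost no counts, in clusters grouped after values had been seen. NRP2 was the 1 gene called among 6 pathway genes tested there, beside 149 of 11545 genes higher at Day 14 (1.29%). HGF, which marks ExE-Mech-like cells, stood in the same clusters at 0 to 0.586 CPM at Day 10 and at 1.98 to 9.42 CPM at Day 14. The Day 10 levels rested on 0, 0 and 3 UMIs, too few for a test to measure the change. The part of ExE-Mech RNA in the rise of NRP2 was not tested.

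FGF17 was highest in endoderm-like cells and next in mesoderm-like cells, and nearly absent from extraembryonic mesenchyme and trophoblast. The study lists FGF17 as a mesoderm marker, while its highest median here was in endoderm-like cells. In endoderm-like cells of the wild type it stood at 261 and 203 CPM at Day 10, at 112 and 183 at Day 12 and at 286 and 209 at Day 14. In the mutant it stood at 238 CPM at Day 10, at 110.0 and 47.1 at Day 12 and at 173 and 308 at Day 14. All 4 Day 12 libraries were below the 3 Day 10 libraries, and the genotypes overlapped at Day 14. Both mutant libraries of Day 12 were below both wild-type ones, but 110.0 and 112 CPM, on 214 and 137 UMIs, were close. How many of all genes show such orders was not counted. FGF17 in endoderm-like cells was not tested. The lowest value, 47.1 CPM (95% Poisson interval 27.5 to 75.5), rested on 17 UMIs of 25 cells.

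In mesoderm-like cells FGF17 stood at 34.0 and 64.2 CPM in the wild-type Day 10 libraries and at 41.3 in wild-type Day 12 replicate 2. It stood at 97.3 CPM in wild-type Day 14 replicate 1, with 853 UMIs of 183 cells, but at 3.21 CPM in replicate 2, with 3 UMIs of 39 cells. The mutant libraries gave 24.6 CPM at Day 10, 97.3 at Day 12 (14 cells) and 81.8 at Day 14 (22 UMIs of 26 cells). The 2 wild-type Day 14 libraries were thus the extremes of the class together with a mutant library of 14 cells. Mutant Day 14 replicate 2 had 4 mesoderm-like cells and was left out.

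The median was 203 CPM over 11 endoderm-like and 52.7 over 8 mesoderm-like samples, and their ranges overlapped (47.1 to 308 and 3.21 to 97.3). Amnion-like (3.31) and Epi-like cells (3.00) followed, each overlapping the class above. ExE-Mech-like (0.0822) and trophoblast-like cells (0.0369) were lower, and the range of Epi-like cells (1.31 to 9.53) did not overlap that of ExE-Mech-like cells (0 to 0.274). Endoderm-like cells were 0.283% to 6.53% of a library and held 36.1% to 93.8% of its FGF17 UMIs. After thinning, 26.1% to 71.6% of endoderm-like and 2.32% to 47.9% of mesoderm-like cells had an FGF17 UMI, against 0% to 0.680% of trophoblast-like cells, over 323 of 480, 348 of 365 and 18726 of 22815 cells. Before thinning the shares were 24.2% to 80.9%, 7.69% to 77.1% and 0% to 2.95%, at median depths of 5830 to 73338 UMIs in endoderm-like, 10055 to 117958 in mesoderm-like and 11406 to 143737 in trophoblast-like cells.

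**Figure D4:**
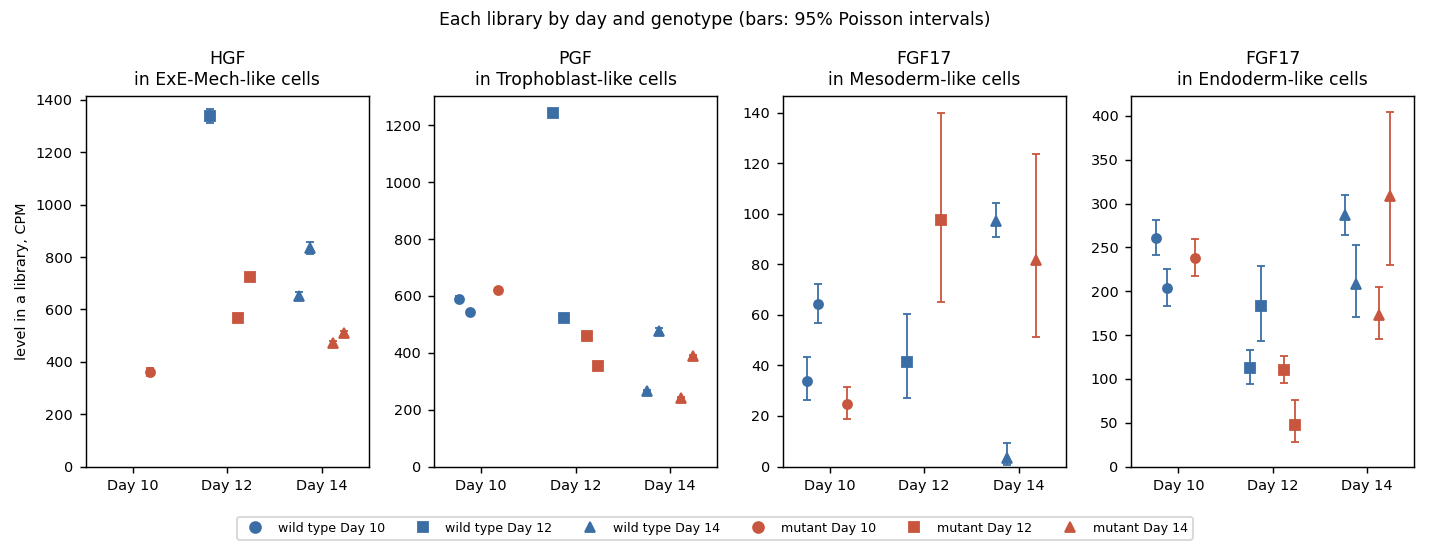
Level of each library in CPM by day, in the class where the gene stands high, with colour for genotype and bars for 95% Poisson intervals, which cover counting error only. HGF is lower in the mutant than in the wild-type libraries of Day 12 and Day 14, an order found for 1440 of 12706 genes (11.3%). FGF17 in mesoderm-like cells stands at 97.3 and 3.21 CPM in the 2 wild-type Day 14 libraries.

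The 2 mesoderm-like clusters of Day 14 differed in FGF17. The first, of 126 cells, stood at 134 CPM, and 119 of its cells came from wild-type Day 14 replicate 1. The other, also of 126 cells, stood at 17.7 CPM, and held 64 cells of wild-type replicate 1 at 20.4 CPM, 35 of wild-type replicate 2 at 1.20 CPM and 23 of mutant replicate 1 at 45.6 CPM. Endoderm markers in mesoderm-like cells summed to 14.3 to 1819 CPM in the wild type and to 30.2 to 379 in the mutant, with 4 to 8 of 8 detected, against 49502 to 86038 in endoderm-like cells. The sum was 1819 CPM in wild-type Day 10 replicate 1, 62.4 in wild-type Day 14 replicate 1 and 25.7 in its replicate 2. The part of endoderm RNA in the FGF17 level of mesoderm-like cells was not tested.

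At Day 14 the genotypes were compared in mesoderm-like cells over 3 libraries. FGF17 is in the study's own table of this comparison, which tested single cells, so the gene was not chosen independently of it. The mutant was 1 library, assumed to vary as the wild type does. The fit had 1 residual degree of freedom, from the 2 wild-type libraries, and edgeR's moderation across genes raised it to 6.98, so that most of the spread behind the test was borrowed from other genes. FGF17 had a log2 change of 0.45 (SE 1.33, 95% interval -2.69 to 3.59) and an adjusted p of 0.951 by edgeR, and this p says little in a design of this size. In these cells ExE-Mech markers, 10 of 10 detected, summed to 792 CPM in the mutant against 97.4 and 274 in the wild type, and amnion markers, 8 or 9 of 10 detected, with GABRP at 0 in all 3 libraries, to 1022 CPM against 345 and 515. Endoderm markers were also higher in the mutant, at 379 CPM against 62.4 and 25.7. The libraries also differed in their shares of the 2 mesoderm-like clusters. The cluster at 134 CPM held 119 of the 183 cells of wild-type replicate 1. The cluster at 17.7 CPM held 35 of the 39 cells of wild-type replicate 2. It also held 23 of the 26 mutant cells, with 10 of their 22 FGF17 UMIs, so the other mutant UMIs came from very few cells. The part of these differences in the comparison was not tested. No gene of 7817 passed (0%) by edgeR, 482 had an unadjusted p under 0.05, and DESeq2 called 5. Over all epiblast-derived cells of Day 14, FGF17 stood at 38.4 and 2.22 CPM in the wild type and at 6.496 and 3.44 in the mutant, and the log2 change turned to -2.11 (adjusted p = 0.212 by edgeR). Mesoderm-like cells were 32.2% and 34.5% of those cells in the wild-type and 5.34% and 4.30% in the mutant libraries.

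From Day 10 to Day 14, FGF17 in mesoderm-like cells had a log2 change of 0.63 (SE 0.76, 95% interval -1.06 to 2.32, 8 libraries) with an adjusted p of 0.747 by edgeR. The Day 10 cluster was led by HAND1, with APOA1, VIM and HAPLN1 among its top 10 genes, and the Day 14 clusters by MESP1 and by FABP7 and CDX1, though MESP1 was among the top 10 of all 3. A change of level and a change in the kind of mesoderm-like cell cannot be told apart. Of 8727 genes 10 passed (0.115%), 4 higher (0.0458%) and 6 lower (0.0688%) at Day 14. Without wild-type Day 14 replicate 1 the change was -0.80, so its direction rested on that library, and with clusters made without integration it was 1.27 (adjusted p = 0.218 by edgeR).

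Of 20 genes listed for FGF signalling, 8 have an identifier in the sources used, and the receptors FGFR1 to FGFR4, FGF8 and FGF18 were not analysed here. FGF4, a ligand of pluripotent cells, had a median of 136 CPM in mesoderm-like (5.16 to 278) and 68.9 in Epi-like cells (24.8 to 101), and of 0 in endoderm-like cells. FGF2 and FGF19 had their highest medians in Epi-like cells, 22.4 and 25.6 CPM. Among targets of the pathway, ETV4, a transcription factor, had a median of 139 CPM in Epi-like (54.7 to 182) and 52.5 in mesoderm-like cells, and DUSP6, a phosphatase that restrains ERK, of 53.5 in endoderm-like, 51.5 in ExE-Mech-like and 7.19 in Epi-like cells. FGF17 and DUSP6 both had their highest median in endoderm-like cells, but in ExE-Mech-like cells, where FGF17 was close to 0, the range of DUSP6 (23.6 to 90.97) overlapped that of endoderm-like cells (42.1 to 74.7).

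None of the 7 to 11 pathway genes tested in each of the 6 comparisons over whole classes passed edgeR's test. An unadjusted p under 0.05 was found for 0 of 11 in trophoblast-like cells between genotypes (21.2% of all genes tested) and 3 of 11 between days (26.4%). In ExE-Mech-like cells it was found for 3 of 7 between genotypes (16.7% of all genes) and 2 of 7 between days (14.5%), and in mesoderm-like cells for 1 of 11 (6.17%) and 3 of 11 (15.6%). The lowest adjusted p-values were those of FGF19 (log2 change 2.36, adjusted p = 0.0273) and HPN (log2 change 1.74, adjusted p = 0.0478), both in mesoderm-like cells from Day 10 to Day 14.

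For each of the 3 genes the 5 genes with the most similar pattern were looked up among 990 genes with a symbol, by the Pearson r of log2(CPM + 1) over 48 sums of a class in a library with at least 20 cells. The sums share libraries and depth, and r is given as a description. Symbols came from the study's supplementary tables, which list markers and other genes that differ in these data. The 990 genes are thus no random draw from the 19367 of the matrix. For HGF the 5 genes were ZEB2 (0.97), TEK, a receptor of angiopoietins (0.95), ISM1 (0.94), HAND2 (0.94) and the ligand WNT2 (0.93). HAND2 is also on the marker list of ExE-Mech. For PGF they were PCLAF, a replication factor (0.92), CD55, an inhibitor of complement (0.91), BZW2 (0.90), the protease CTSL (0.89) and FADS3 (0.89). PCLAF belongs, with MKI67 and CCNE1, to a list of cycling genes. Across the 31 trophoblast-like clusters these gave an r with PGF of 0.30, -0.22 and -0.08. For FGF17 they were the transcription factors LHX1 (0.93), EOMES (0.92), SOX17 (0.91) and GSC (0.89), and CDA, cytidine deaminase (0.92). EOMES and GSC are on the mesoderm list and SOX17 on the endoderm list, and all 5 had higher medians in endoderm-like than in mesoderm-like cells, as FGF17 did.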

How the data were processed

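Embryos were measured with Chromium 3′ v3 libraries. The authors aligned and counted UMIs with Cell Ranger 3.1.0 against the Ensembl annotation of Macaca_fascicularis_5.0, removed cells by their mitochondrial reads and gene number, and subtracted ambient RNA with SoupX. The values deposited by the authors are expected counts (corrected, whole numbers, used here) and counts (uncorrected, an alternative). The correction removed 1.50% of HGF, 3.45% of PGF and 0.273% of FGF17 UMIs. The 209 cells of the uncorrected matrix alone were left out. Symbols were paired for 1020 genes.

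The deposited files used here assign no cell types, so the libraries of a day were integrated with Seurat 5.3.0 (R 4.3.3, reciprocal PCA, 5000 features, 30 components) and clustered (Louvain, resolution 0.8, 20 neighbours). A name needed 3 markers of its list in at least 25% of a cluster's cells, and was lost where another class led its top 10 genes. That rule was set after clusters had been seen, and rebuilt names can differ from those of the study. The members and lists were chosen with earlier results of these data known. The genes named are the members, the genes of 3 pathway lists with an identifier, and the 5 most similar genes for each member. Scrublet (scanpy 1.11.5) marked 536 cells (1.61%, from 0% to 2.65% of a library) as doublets, which were kept and left out as an alternative. Shares of cells were thinned to 10000 UMIs. Sums per class and library with at least 5 cells were tested with edgeR 4.0.16 (TMM, filterByExpr, quasi-likelihood, Benjamini-Hochberg over all genes of a comparison, false discovery rate 1%), with DESeq2 1.42.0 as an alternative, and the fit was tested on simulated data with 200 changed genes. Each member passed the filter on low counts in its comparisons. SE is the log2 change over the square root of F. Intervals on CPM are Poisson intervals.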

Additional observations from a re-analysis of the deposited data

Results flagged for a closer look

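PGF in trophoblast-like cells stood in opposite orders by genotype at the first 2 days. The mutant library was above both wild-type libraries at Day 10 and both mutant libraries were below both wild-type libraries at Day 12. The Day 10 order rested on the only mutant library of that day, which stood close to the higher wild-type one. How many genes show such orders was not counted. The genotype effect at Day 12 minus that at Day 10 was -1.31 on the log2 scale, with an interaction p of 0.101 and an adjusted p of 0.635 by edgeR's quasi-likelihood test, so the difference did not pass. FGF17 in mesoderm-like cells was lower in the mutant than in both wild-type libraries at Day 10 and higher at Day 12, where each genotype had 1 library. There the difference of the effects was 2.29, with a p of 0.316 and an adjusted p of 0.814 by edgeR.

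HGF stood at 218 CPM in the clusters that carried markers of more than 1 class and entered no comparison. PGF stood at 169 CPM in those clusters and at 116 CPM in the unnamed Day 10 clusters, where the 2 wild-type libraries gave 111.0 and 111.2 CPM.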

How the results depend on the processing

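Of 124 alternatives for the changes of the 3 genes, 111 kept direction and side of the threshold, 9 lost the call, 3 turned the direction and 1 gained a call. The direction turned for PGF between genotypes in cytotrophoblast clusters alone (0.21), for FGF17 between genotypes over all epiblast-derived cells of Day 14 (-2.11), and for FGF17 between days without wild-type Day 14 replicate 1 (-0.80). The call was gained for PGF between days in hormone-high clusters alone (-1.77), where wild-type libraries alone gave -1.88 (adjusted p = 0.0265 by edgeR). The cause was not tested. PGF between Day 10 and Day 14 was -0.48 with the unnamed Day 10 clusters nearest to trophoblast counted in and -1.34 without integration, and neither passed. The splits of trophoblast-like clusters and the count with unnamed clusters were chosen after seeing the data.

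Leaving out each library in turn gave log2 changes between genotypes of -0.68 to -0.15 for PGF and -0.82 to -0.53 for HGF, and between days of -0.94 to -0.39 for PGF, -0.62 to -0.29 for HGF, -1.91 to -1.62 for PGF in hormone-high clusters and -0.80 to 1.23 for FGF17. For FGF17 between genotypes, no fit without integration, with the block or without any 1 library was run, since each left no residual degrees of freedom or lacked a genotype.

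Counts of genes passing moved more than the changes of the members. In trophoblast-like cells between genotypes the count of 1 became 730 by DESeq2 and 0 with Day 14 or Day 12 alone or in hormone-high or cytotrophoblast clusters, with 0 to 109 without 1 library (109 without wild-type Day 14 replicate 1). In ExE-Mech-like cells between genotypes the count of 2 became 197 with no filter, 273 by DESeq2, 0 on uncorrected counts or without integration, and 1 with Day 14 or Day 12 alone, with 0 to 3 without 1 library. In mesoderm-like cells between genotypes the count of 0 became 2 with DESeq2's size factors, 58 with no filter, 5 by DESeq2, 2 on uncorrected counts and 69 over all epiblast-derived cells. Between days, the count of 0 in trophoblast-like cells became 25 with no filter, 1451 by DESeq2, 536 in hormone-high and 80 in cytotrophoblast clusters, with 0 to 192 without 1 library (192 without mutant Day 10 replicate 1). The count of 0 in ExE-Mech-like cells became 137 with no filter and 189 by DESeq2, and stayed at 0 without any 1 library. The 536 of the hormone-high clusters became 1119 with no filter, 1697 by DESeq2, and 146 to 1082 without 1 library. The 10 of mesoderm-like cells became 431 with no filter, 144 by DESeq2, and 0 without integration or in the wild type alone, with 0 to 13 without 1 library.

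Replicate numbers are batch labels and are not known to pair embryos. Deviations of libraries with the same number correlated at 0.0611 and 0.0700 in trophoblast-like cells of Day 12 and Day 14 and at 0.159 in ExE-Mech-like cells of Day 14. With the replicate block, PGF in hormone-high clusters changed by -1.69 (adjusted p = 0.0113 by edgeR), past the threshold no longer. The other blocked changes between genotypes were -0.51 for PGF and -0.64 for HGF, and those between days -0.64 for PGF, -0.39 for HGF and 0.24 for FGF17, and none changed a call. The block moved the count of 2 genes to 1 in ExE-Mech-like cells between genotypes and that of 10 to 17 in mesoderm-like cells between days. Few cells and low depth limit FGF17, whose level in a library rested on 3 to 853 UMIs in mesoderm-like and 17 to 680 in endoderm-like cells.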
